A study of Mus musculus with 10 samples.

Results

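The genes described here were Atf4 and 9 genes of the stress response and amino acid supply that it serves: Atf5, Ddit3, Asns, Chac1, Trib3, Psat1, Phgdh, Slc7a11 and Ddit4. They were chosen by name, as the rows of the count table whose Ensembl identifier maps to these symbols. Earlier results of these data were known at that time. All 10 were found among the 35375 features of the table, and all 10 passed the filter on low counts, as did 19511 features in all. RNA sequencing had been done on whole mouse thymus 3 days after birth, on a C57BL/6J background, after ribosomal RNA was depleted. Usp7, which encodes a deubiquitinating enzyme and is also called HAUSP, was inactivated in the hematopoietic system, on both alleles (homozygous KO, n = 3 animals) or on 1 allele (heterozygous KO, n = 3 animals). The wild type group had n = 4 animals. By the series text 2 of these carried induced cre, the recombinase that deletes a marked gene, and 2 did not. The titles give 2 wild types the word wt a second time (replicates 1 and 2), and the count columns of replicates 3 and 4 add the word het to wt. Whether these words mark cre is not stated, and the group in the title was kept. Neither the promoter that drove cre nor the sex of the animals is given.

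ATF4 is a transcription factor of the basic leucine zipper class. When a cell lacks amino acids, carries unfolded protein in the endoplasmic reticulum, lacks heme or is infected by a virus, a kinase phosphorylates the translation factor eIF2α, general protein synthesis slows, and the ATF4 messenger is translated more. ATF4 then switches on genes that make, import and conserve amino acids and, if stress persists, genes that limit growth or favor cell death. Because this control acts on translation, the level of the Atf4 messenger need not follow the level of the protein. Thymocytes pass through rapid proliferation on their way to maturity and draw heavily on serine, asparagine and cystine while they do so.

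ATF4 binds, with a C/EBP protein as its partner, to a short composite element in the promoters of its targets. The promoters of the 10 genes, from 250 bases before to 50 bases after the start in RefSeq on GRCm38.p6, were searched for the letters TGATGNAA on both strands. Asns, Chac1, Trib3 and Slc7a11 held them, 4 of 10 genes and 4 of their 12 windows, since Atf5 and Psat1 have 2 windows each. Of all 32851 windows of this length 3.97% held them, and of all 27025 genes with such a window 4.51%. The stretches around these matches are shown because Asns and Slc7a11 later moved in opposite directions. They are printed from 5′ to 3′ on the strand of the gene, with the matches in capitals, and lie at chr6:7693210-7693272 (minus strand), chr2:119351009-119351096 (plus strand), chr2:152344028-152344057 (minus strand) and chr3:50443614-50443719 (minus strand).
Asns: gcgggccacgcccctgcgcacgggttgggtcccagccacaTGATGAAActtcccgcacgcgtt
Chac1: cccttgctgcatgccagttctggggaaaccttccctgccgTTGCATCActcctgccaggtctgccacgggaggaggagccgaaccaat
Trib3: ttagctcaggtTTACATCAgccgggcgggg
Slc7a11: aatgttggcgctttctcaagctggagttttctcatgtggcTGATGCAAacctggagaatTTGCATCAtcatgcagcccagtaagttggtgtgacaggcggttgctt
In Asns the match was on the strand of the gene and began 23 bases before the start. In Chac1 and Trib3 it was on the other strand, beginning 193 bases before and 15 bases after the start. Slc7a11 held 2 matches, 1 on each strand, beginning 66 and 47 bases before the start. The palindrome TGACGTCA, read by ATF and CREB proteins, was in 0 of the 12 windows and in 1.79% of all windows. The letters TGACNNNGC of the antioxidant element, which NRF2 reads, were in the windows of Asns and Phgdh and in 12.4% of all windows. No binding was measured, so these matches are letters and not sites.

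The libraries held 39.8 to 122 M counts, and a count of 0 allows up to 3 counts, which is 0.0260 to 0.0737 CPM (counts scaled to a common total by TMM), for counting error only. Depth followed genotype: the wild types held 39.8, 41.0, 86.4 and 81.0 M counts, and every knockout library held 90.5 M or more. Raw counts given below therefore differ between groups by depth as well as by level. Usp7 (ENSMUSG00000022710) was at 303, 422 and 408 CPM in homozygous KO, at 472, 516 and 516 CPM in heterozygous KO and at 676, 670, 594 and 589 CPM in wild type. The groups did not overlap, and the knockouts kept 59.7% and 79.2% of the level in wild type. Usp7 was lower by edgeR's quasi-likelihood test in homozygous KO than in wild type (log2 fold change -0.74, adjusted p = 5.2e-04), and its exact two-sided permutation p of 0.0571 is the smallest that 3 against 4 libraries give when the smaller tail is doubled. In heterozygous KO against wild type Usp7 was not called (-0.34, SE 0.11, edgeR adjusted p = 0.608), and it was called in 0 of 17 alternatives. Between the knockouts it was at -0.41 (edgeR adjusted p = 0.0288). The animal numbers in the titles fall into 44 to 51 (1 animal with both alleles deleted, 1 with 1 allele deleted and 3 wild types) and 56 to 63 (2, 2 and 1). Values within these blocks are given beside some of the results. For Usp7 the log2 difference of homozygous KO from wild type was -1.09 among animals 44 to 51 and -0.51 among animals 56 to 63. Xist was high in 1 library of homozygous KO, in 0 of heterozygous KO and in 3 of wild type, so sex was unbalanced. Markers of thymocytes summed to 8780 to 9208 CPM in homozygous KO against 10567 to 11885 CPM in wild type, with 2 of 9 called higher and 2 lower. Markers of neutrophils to 55.97 to 312 against 7.90 to 24.4 CPM with 6 of 8 called higher, and those of macrophages to 23.9 to 24.99 against 43.4 to 59.1 CPM with 5 of 7 called lower and 1 higher. For B cells 4 of 5 markers were lower (sums of 294 to 335 against 323 to 384 CPM), and for fibroblasts 4 of 6 were higher (10.4 to 32.3 against 4.25 to 12.9 CPM). Erythroid markers spread widely, at 71.8 to 718 against 108 to 545 CPM with 1 of 6 called higher. Those of thymic epithelium were at 71.1 to 156 against 78.1 to 101 CPM, with 1 of 7 called higher and 1 lower. Over all features 12.5% were called higher and 13.2% lower in this comparison. None of these markers was called in heterozygous KO against wild type. In whole tissue, fewer cells of a type and less RNA per cell cannot be told apart, and the part of these shifts in the results below was not tested.

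In wild type thymus, levels compared per kilobase of exon ran from Phgdh at 93.4 ± 4.24 (SD, n = 4) CPM per kilobase to Chac1 at 0.0723 ± 0.0815. Atf4 at 78.8 ± 14.9 CPM per kilobase lay within its own spread of Phgdh, and below both came Psat1 at 43.1 ± 1.48, Ddit4 at 31.3 ± 1.18 and Slc7a11 at 13.0 ± 2.32. Ddit3 at 12.8 ± 1.44 CPM per kilobase could not be separated from Slc7a11, while Atf5 at 5.32 ± 0.520, Asns at 1.85 ± 0.233 and Trib3 at 0.492 ± 0.156 each stood below the gene before. The serine enzymes were thus among the highest of the 10 genes, and the pseudokinase Trib3 and the glutathione-degrading Chac1 were near the bottom. Exon lengths came from a later annotation than the counting, and that of Slc7a11 is long, so the order depends on those models.

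**Figure D1:**
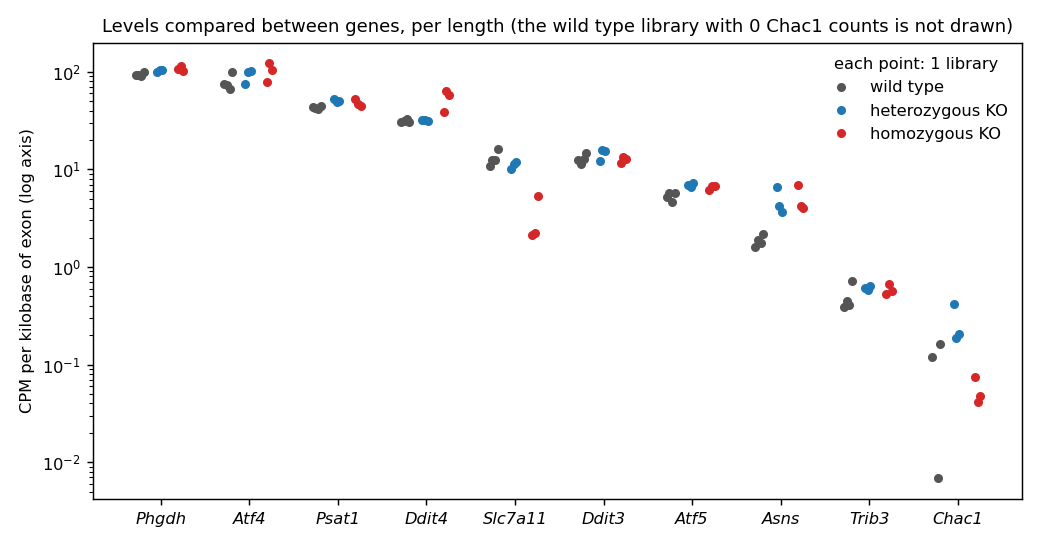
TMM-scaled CPM per kilobase of exon on a log axis, for the 10 genes in the order of their wild type level, with 1 point for each library of wild type (grey), heterozygous KO (blue) and homozygous KO (red). Slc7a11 was below the other groups and Ddit4 above them in all homozygous KO libraries, and Asns was above wild type in both knockouts.

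Homozygous KO was set against wild type to ask what the loss of both Usp7 alleles went with. Of the 10 genes, 4 rose and 1 fell at an adjusted p under 0.05 in edgeR's quasi-likelihood test. In the fit Asns was 2.74-fold, Ddit4 1.71-fold, Atf5 1.24-fold and Phgdh 1.15-fold higher, and Slc7a11 was 4.05-fold lower. Atf4 itself, Ddit3, Chac1, Trib3 and Psat1 were not called. Over all features 12.5% were called higher and 13.2% lower, 25.8% in either direction, so a called gene was common in this comparison. The number called was 3 of 10 without homozygous KO replicate 2 or wild type replicate 1, and 6 of 10 without homozygous KO replicate 1 or wild type replicate 4. The same 5 genes had groups that did not overlap, where 16.3% of all features were higher and 16.4% lower without overlap. The median log2 fold change of the 10 genes was 0.22, and that of all features was -0.01.

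Slc7a11 (ENSMUSG00000027737, chromosome 3) encodes xCT, the light chain of the transporter that takes up cystine in exchange for glutamate and so supplies cysteine for glutathione. It was at 21.2, 22.0 and 52.1 CPM in homozygous KO, at 99.5, 111 and 117 CPM in heterozygous KO and at 106, 122.8, 124 and 161 CPM in wild type. Each homozygous KO library was below each of the other 7, and the third, the library with high Xist, was the highest of its group. Slc7a11 fell by 2.02 on the log2 scale against wild type (SE 0.29, edgeR adjusted p = 5.1e-04). The fall was -2.47 among animals 44 to 51 and -2.25 among animals 56 to 63, where in each block an arm has only 1 library. Against heterozygous KO the log2 fold change was -1.78 (SE 0.30, with an edgeR adjusted p of 0.00187), and heterozygous KO overlapped wild type (log2 fold change -0.23, SE 0.27, edgeR adjusted p = 0.901). Slc7a11 was thus called in both comparisons of homozygous KO, and the 17 alternatives against wild type and the 14 against heterozygous KO kept both calls.

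Ddit4 (ENSMUSG00000020108, chromosome 10) encodes REDD1, an inhibitor of the growth kinase complex TORC1 that responds to hypoxia, glucocorticoids, DNA damage and ATF4. It was at 68.5, 112 and 100 CPM in homozygous KO, at 55.7, 55.7 and 54.7 CPM in heterozygous KO and at 53.2, 54.8, 57.8 and 53.7 CPM in wild type. The 7 libraries with a wild type allele lay close together, and the 3 homozygous KO libraries lay above all of them with a wide spread (93.8 ± 22.6 CPM, SD, n = 3). On the log2 scale they exceeded wild type by 0.77 (SE 0.13, edgeR adjusted p = 0.00125) and heterozygous KO by 0.76 (SE 0.14, edgeR adjusted p = 0.00308). Heterozygous KO differed from wild type by 0.01 (SE 0.13, edgeR adjusted p = 0.993) on the log2 scale. Within animals 44 to 51 the difference between homozygous KO and wild type was 0.31, and within 56 to 63 it was 0.98. Both calls were kept in every alternative run.

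Asns (ENSMUSG00000029752, chromosome 6) encodes asparagine synthetase, which makes asparagine from aspartate and glutamine and is a textbook target of ATF4. It was at 15.1, 9.13 and 8.71 CPM in homozygous KO, at 14.2, 9.05 and 7.92 CPM in heterozygous KO and at 3.49, 4.04, 3.77 and 4.67 CPM in wild type. Every knockout library of either kind was above every wild type library, and the highest of each knockout group was its animal numbered 44 to 51. The rise in homozygous KO was 1.46 on the log2 scale (SE 0.24, edgeR adjusted p = 0.00115) and was called in all 17 alternatives. The heterozygous KO value was 1.38 (SE 0.24, unadjusted p = 1.1e-04), and the edgeR adjusted p over all features was 0.304. The knockouts differed from each other by 0.08 on the log2 scale (SE 0.25, edgeR adjusted p = 0.884). Among animals 44 to 51, homozygous KO exceeded wild type by 1.99 and heterozygous KO by 1.92, and among animals 56 to 63 by 0.93 and 0.86. Asns was therefore near its homozygous KO level already in heterozygous KO, which neither Ddit4 nor Slc7a11 was.

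**Figure D2:**
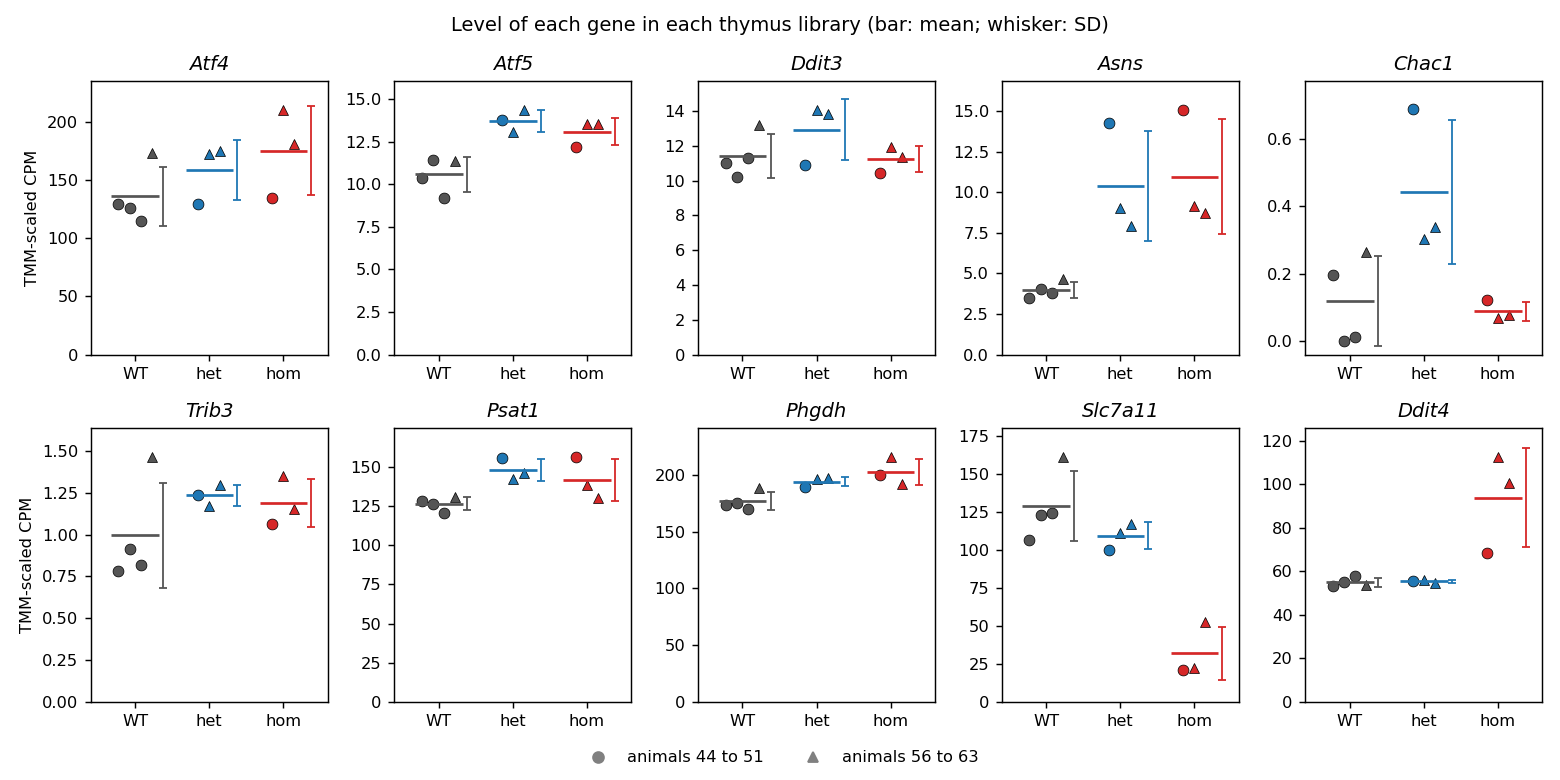
TMM-scaled CPM of the 10 genes in each library, with wild type (WT), heterozygous KO (het) and homozygous KO (hom) on the horizontal axis, circles for animals 44 to 51 and triangles for animals 56 to 63, horizontal bars for group means and whiskers for SD. Asns was higher in all 6 knockout libraries, and Ddit4 was higher and Slc7a11 lower in the 3 homozygous KO libraries.

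Atf4 (ENSMUSG00000042406, chromosome 15), the factor that gives the group its name, was at 135, 210 and 181 CPM in homozygous KO, at 129, 173 and 175 CPM in heterozygous KO and at 129, 126, 115 and 173 CPM in wild type. In each group the animals 56 to 63 were higher than the animals 44 to 51, and the groups overlapped. The log2 fold change of homozygous KO against wild type was 0.37 (SE 0.17, edgeR adjusted p = 0.142), and within the blocks it was 0.13 and 0.17. It passed the threshold without homozygous KO replicate 1 (adjusted p = 0.0377) and without wild type replicate 4 (adjusted p = 0.0378), which are the libraries whose block differs from most of their group. Atf4 was not called in 14 of 17 alternatives, among them 5 of 7 fits with 1 library left out (edgeR adjusted p up to 0.426). Heterozygous KO differed by 0.22 (SE 0.17, edgeR adjusted p = 0.841).

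Atf5 (ENSMUSG00000038539, chromosome 7) encodes a related leucine zipper factor whose translation is controlled in the same way and which induces mitochondrial stress genes. It was at 12.2, 13.5 and 13.6 CPM in homozygous KO, at 13.8, 13.1 and 14.3 CPM in heterozygous KO and at 10.4, 11.4, 9.23 and 11.4 CPM in wild type. Both knockout groups were above all wild types. Homozygous KO exceeded wild type by 0.31 on the log2 scale (SE 0.10, edgeR adjusted p = 0.0391). For heterozygous KO the value was 0.37 (SE 0.10, edgeR adjusted p = 0.568). The first call was lost in 12 of 17 alternatives, among them those without homozygous KO replicate 2 or 3 or wild type replicate 1 or 3, with adjusted p up to 0.106 in these 4, and the one with a term for the animal-number block (adjusted p = 0.0631). Within the blocks the difference of homozygous KO from wild type was 0.24 and 0.25. Exons of Il4i1 and Nup62 overlap those of Atf5 on the other strand, and whether the counting used strand is not stated, so its counts are uncertain to that extent.

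Ddit3 (ENSMUSG00000025408, chromosome 10) encodes CHOP, the factor that ATF4 induces under lasting stress and that favors cell death. It was at 10.5, 11.9 and 11.4 CPM in homozygous KO, at 10.9, 14.0 and 13.8 CPM in heterozygous KO and between 10.2 and 13.2 CPM in wild type. The 3 groups overlapped. Neither knockout differed from wild type by the test, with -0.02 (SE 0.12, edgeR adjusted p = 0.905) for the homozygous and 0.18 (SE 0.12, edgeR adjusted p = 0.807) for the heterozygous animals on the log2 scale. The exons of Ddit3 overlap those of Mars and Gm4189 on the other strand and those of another entry named Ddit3 on the same strand. Whether the annotation used for counting held that entry is not known, so the counts of Ddit3 are uncertain to that extent. Trib3, a pseudokinase that CHOP and ATF4 induce and that restrains ATF4, was low throughout, at 1.07 to 1.35 CPM in homozygous KO, 1.17 to 1.30 CPM in heterozygous KO and 0.786 to 1.46 CPM in wild type. Against wild type Trib3 was at 0.24 for homozygous KO (SE 0.25, edgeR adjusted p = 0.504) and at 0.30 for heterozygous KO (SE 0.25, edgeR adjusted p = 0.855), both as log2 fold changes. Within animals 44 to 51 these differences were 0.34 and 0.55, and within animals 56 to 63 they were -0.23 and -0.24.

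Chac1, an enzyme that breaks down glutathione and a sensitive target of ATF4 and CHOP, was at the edge of detection. It had 14, 7 and 7 counts in homozygous KO, 69, 29 and 31 counts in heterozygous KO and 8, 0, 1 and 22 counts in the shallower wild type libraries. The heterozygous KO libraries were the highest of the 10, at 0.690, 0.304 and 0.338 CPM. None of the 3 log2 fold changes passed: -0.42 (SE 0.88, edgeR adjusted p = 0.763) for homozygous KO and 1.87 (SE 0.80, edgeR adjusted p = 0.681) for heterozygous KO against wild type, and -2.29 (SE 0.86, edgeR adjusted p = 0.0998) between the knockouts. The difference between the knockouts was called with only these groups in the fit (adjusted p = 0.0183) and with the replicate number as a term (adjusted p = 0.0411), and in none of the other 12 alternatives. Within animals 44 to 51, homozygous KO differed from wild type by 1.36 and heterozygous KO by 3.66 on the log2 scale. Within animals 56 to 63 these values were -1.59 and 0.25. The wild types among animals 44 to 51 had 8, 0 and 1 counts. The differences in that block therefore depend on the prior count, the small count added before the logarithm.

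Phgdh and Psat1 encode the first and second enzymes of serine synthesis, which Psph completes. Phgdh (ENSMUSG00000053398, chromosome 3) was at 200.2, 215 and 192 CPM in homozygous KO, at 189, 196 and 197 CPM in heterozygous KO and at 174, 175, 169.9 and 188 CPM in wild type. Both knockout groups lay above all wild types by a narrow margin. Homozygous KO exceeded wild type by 0.20 on the log2 scale (SE 0.05, edgeR adjusted p = 0.01996), and heterozygous KO by 0.13 (SE 0.05, edgeR adjusted p = 0.664). The call in homozygous KO was lost without homozygous KO replicate 2 (adjusted p = 0.0825), wild type replicate 1 (adjusted p = 0.0552) or wild type replicate 2 (adjusted p = 0.0538), and with scaling by library totals alone it was 0.10 (adjusted p = 0.163). Psat1 (ENSMUSG00000024640, chromosome 19) was at 156, 139 and 130.1 CPM in homozygous KO, at 156, 142 and 146 CPM in heterozygous KO and at 129, 126, 121 and 131 CPM in wild type. Only its heterozygous KO group lay wholly above wild type, and it was called in neither comparison, at 0.16 for homozygous KO (SE 0.06, edgeR adjusted p = 0.0911) and 0.23 for heterozygous KO (SE 0.06, edgeR adjusted p = 0.594) on the log2 scale. In homozygous KO it passed with a term for the animal-number block (adjusted p = 0.0362) and without homozygous KO replicate 3 (adjusted p = 0.0401). Within the blocks that difference was 0.32 for animals 44 to 51 and 0.036 for animals 56 to 63.

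Heterozygous KO was set against wild type to ask what the loss of 1 allele went with. None of the 10 genes was called by edgeR's quasi-likelihood test, and only 0.0154% of all features were. At an unadjusted p under 0.05 there were 5 of the 10, all higher: Asns, Chac1, Psat1, Atf5 and Phgdh, against 3.08% of all features higher at that level. The same 5 genes lay above all wild types without overlap, against 4.41% of all features. Both counts rest on the same values, and the 10 genes were chosen with earlier results of these data known. The counts are therefore a description and not a test of the group. The median log2 fold change of the 10 genes was 0.23 and that of all features -0.01. DESeq2 called Asns (adjusted p = 2.4e-05) and Atf5 (adjusted p = 0.0276) among the 10 genes. Both knockouts were compared with the same 4 wild type libraries, so their values are set side by side and are not independent.

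The comparison of homozygous with heterozygous KO asked what the second allele added. Here 1 of the 10 genes was higher, Ddit4, and 1 was lower, Slc7a11, where 7.63% of all features were called higher and 9.5% lower. The groups did not overlap for Ddit4, which was higher, and for Slc7a11 and Chac1, which were lower, where 16.5% of all features were higher and 16.8% lower without overlap. For Asns, Atf5, Psat1, Phgdh, Trib3, Ddit3 and Atf4 the log2 fold change was between -0.20 and 0.14, and none was called.

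**Figure D3:**
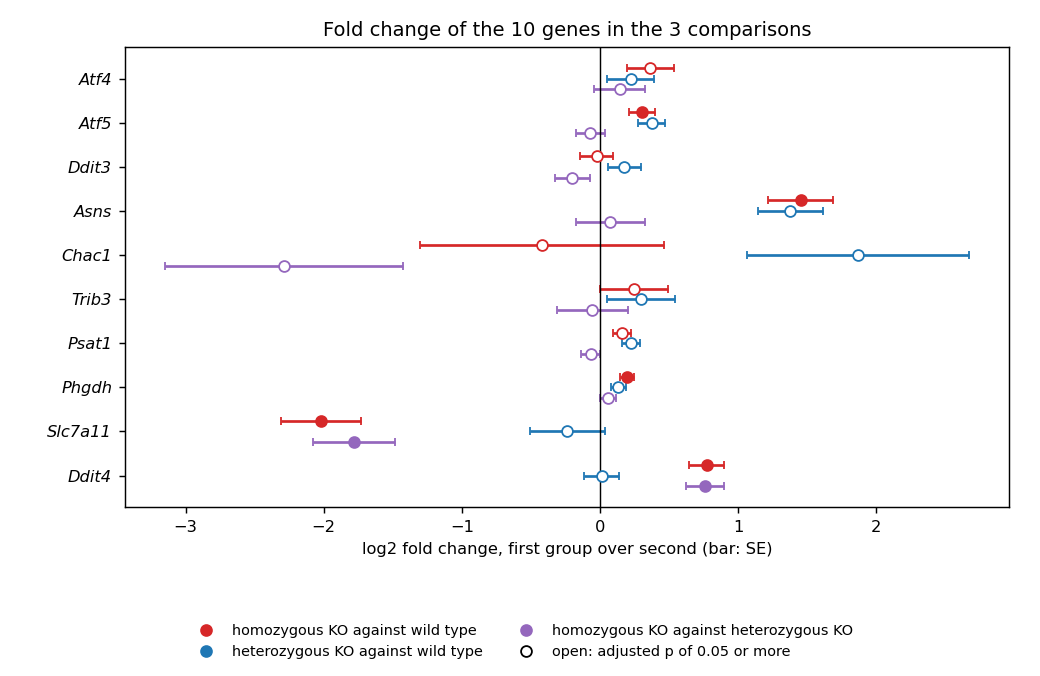
Log2 fold change of the 10 genes (first group over second, bars are SE) for homozygous KO against wild type (red), heterozygous KO against wild type (blue) and homozygous against heterozygous KO (purple), with filled points for an edgeR adjusted p under 0.05. Asns was near 1.4 in both knockouts, Slc7a11 near -2 in both comparisons of homozygous KO, and Chac1 had the widest bars.

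The rest of the pathway was read from 160 other genes in 11 lists, of which 159 were tested. In homozygous KO against wild type 39 rose and 13 fell, 32.7% of those tested, beside 25.8% of all features. With library totals alone as the scale the split was 17 higher and 20 lower, and over all features higher genes made up 29.0% of the calls in place of 48.6%, since the median of all features moved from -0.01 to -0.11. The larger share of rises than falls in these lists therefore held relative to the median gene and not relative to total RNA counts. Among the sensors upstream of ATF4, only the amino acid sensing kinase Eif2ak4, or GCN2, was called, and it fell by 0.23 on the log2 scale (SE 0.07, edgeR adjusted p = 0.0376). That call was lost in 5 of 7 fits with 1 library left out, all but those without homozygous KO replicate 2 or wild type replicate 3, with adjusted p up to 0.114. Of the subunits of eIF2, its exchange factor eIF2B and its phosphatases, 6 of 11 (54.5%) rose and 0 fell, beside 12.5% of all features called higher. The amounts were small: Eif2b4 by 0.28, Eif2b2 by 0.27 and Eif2b5 by 0.25 on the log2 scale. Eif2b2 lost its call in 5 of these 7 fits (without homozygous KO replicate 2 or 3 or wild type replicate 1, 2 or 3, adjusted p up to 0.0938).

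Of 18 other targets of ATF4 and CHOP, 3 rose and 0 fell, so 16.7% were called. Of all features 12.5% were called higher and 25.8% in either direction. Gdf15, a secreted hormone of cell stress, had 52, 46 and 33 counts in the homozygous KO libraries, 14, 10 and 13 in the heterozygous KO libraries and 2, 2, 9 and 1 in the shallower wild type libraries. It was called higher (edgeR adjusted p = 0.00148), but with 3 of 4 wild types at or under 3 counts its fitted log2 fold change of 2.93 (SE 0.50) depends on the prior count. Sesn2, a leucine sensor that restrains TORC1, rose by 1.23 (SE 0.23, edgeR adjusted p = 0.00270), and Ero1l, an oxidase of the endoplasmic reticulum, rose by 0.56 (SE 0.09, edgeR adjusted p = 9.98e-04). Gdf15 and Sesn2 are also known targets of p53. Of 20 cytosolic aminoacyl-tRNA synthetases, which charge tRNAs with amino acids, 9 rose and 0 fell, led by Gars at 0.33, Aars at 0.32 and Nars at 0.28. Among the 10 partners and regulators of ATF4, Nfe2l2, the gene of NRF2, alone was called, at 0.35, and not without homozygous KO replicate 1 (adjusted p = 0.0743) or wild type replicate 1 (adjusted p = 0.0515). In the list of NRF2 and glutathione genes 5 of 12 rose and 1 fell. Hmox1, Gclm and Gsr were at 0.96, 0.44 and 0.41, and the iron exporter Slc40a1 fell by 0.81 on the log2 scale. The calls of Hmox1, Gclm and Gsr were lost in 4, 4 and 5 of 7 fits with 1 library left out (adjusted p up to 0.112, 0.153 and 0.113). Without homozygous KO replicate 1, Gclm was at 0.24.

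Around the serine enzymes, 4 of 13 genes of glycine and one-carbon metabolism rose and 0 fell. That was 30.8% of the list, near the 25.8% of all features called in either direction, where 12.5% were called higher. Tyms, the thymidylate synthase, was at 0.46 and Mthfd1, which interconverts carriers of single carbon units, at 0.30. Among 20 other enzymes of amino acid metabolism 3 rose and 2 fell, 5 of 20 called, which was near the 25.8% of all features. The urea cycle enzymes Ass1 and Asl were at 0.54 and 0.37 and glutamate dehydrogenase Glud1 at 0.23, while the branched-chain transaminase Bcat2 fell by 0.43 and the proline enzyme Aldh18a1 by 0.35 on the log2 scale. Of 17 amino acid transporters 2 rose, Slc36a4 at 0.74 and Slc38a1 at 0.28, and 5 fell, so 41.2% were called beside 25.8% of all features. The 3 largest of these falls, Slc7a3, Slc7a8 and Slc7a7, were at -1.16, -0.86 and -0.70 and belong to the family of Slc7a11. So do Slc7a1, Slc7a5 and Slc7a6 of the same list, which were not among those 3 or the 2 that rose. Slc7a3 had 16 to 34 counts in the wild type libraries and was not called without homozygous KO replicate 2 (adjusted p = 0.0810) or wild type replicate 1 (adjusted p = 0.0511). Beside Ddit4, 3 of 11 regulators of TORC1 fell and 0 rose. That share of 27.3% was also near the 25.8% of all features called in either direction, where 13.2% were called lower. They were the arginine sensor homolog Castor2 (-0.94), the inhibitor Deptor (-0.83) and the sestrin Sesn3 (-0.69).

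In the branch of the unfolded protein response that runs through ATF6 and XBP1, 6 of 20 genes rose and 1 fell, where 12.5% of all features rose and 13.2% fell. Edem1, which helps remove misfolded glycoproteins, rose by 0.61 on the log2 scale (SE 0.05, edgeR adjusted p = 1.1e-05), and Creld2 and Sec61b were at 0.26 and 0.22. Atf6 itself fell by 0.56 (SE 0.09, edgeR adjusted p = 0.00138). Creld2 was not called without homozygous KO replicate 1 or wild type replicate 1 or 2 (adjusted p up to 0.0903), nor Sec61b without homozygous KO replicate 2 or wild type replicate 1, 2 or 3 (adjusted p up to 0.0940). The median of this list was 0.01, close to that of all features.

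**Figure D4:**
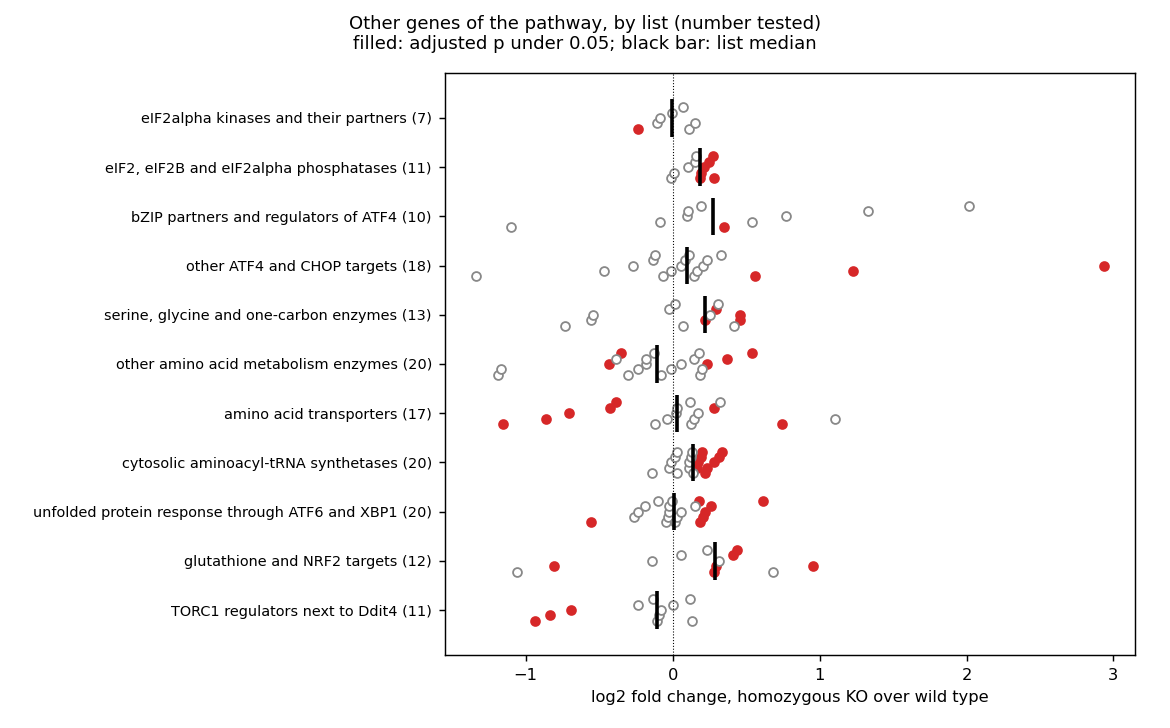
Log2 fold change of homozygous KO over wild type for the 159 other genes of the pathway, 1 row of points for each of 11 lists, with filled points for an edgeR adjusted p under 0.05 and a black bar for the median of the list. The 9 called tRNA synthetases lay between 0 and 0.33, Gdf15, with few counts in wild type, stood at 2.93, and the called TORC1 regulators lay below 0.

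In heterozygous KO against wild type 0 of these 159 genes were called by edgeR, 28 had an unadjusted p under 0.05 (21 higher), and DESeq2 called 2, Slc38a9 (adjusted p = 0.00102) and Manf (adjusted p = 0.0306). Slc38a9 was matched by the symbol in its feature's name and has no Ensembl identifier in the table, so that its row may hold only part of the gene. The gene of smallest p in its list included the proline enzyme Pycr1 at 1.08 (SE 0.23, edgeR adjusted p = 0.496), Gdf15 at 1.23 (SE 0.53, edgeR adjusted p = 0.681), Slc38a9 at -0.40 (SE 0.08, edgeR adjusted p = 0.426) and Manf at 0.17 (SE 0.04, edgeR adjusted p = 0.568). In homozygous against heterozygous KO 15 rose and 11 fell, 16.4% of those tested beside 17.1% of all features, and with library totals alone 10 rose and 18 fell. Without heterozygous KO replicate 3 the number called was 17. Pycr1 fell by 1.38 (SE 0.25, edgeR adjusted p = 0.00290), Slc7a3 by 2.37 (SE 0.33, edgeR adjusted p = 6.3e-04) and Gpt2 by 0.75 (SE 0.16, edgeR adjusted p = 0.00897) on the log2 scale, while Edem1 was at 0.61, Ero1l at 0.51, Slc36a4 at 0.48 and Asl at 0.41. These 7 calls were kept whichever library was left out. Those of Gdf15 (1.70) and Sesn2 (0.88) were lost in 6 and 4 of 6 such fits, with adjusted p up to 0.112 and 0.111. Slc7a3 had few counts: 129, 83 and 58 with 1 allele deleted, and 22, 15 and 18 with both. The shallower wild type libraries had 19, 16, 31 and 34. Homozygous KO was at -1.16 against wild type for this gene. Its fall of 2.37 thus also held a higher level in heterozygous KO than in wild type.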

How the data were processed

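The authors deposited 1 table of raw read counts per gene, which per the labels came from stranded libraries (KAPA, ribosomal RNA removed). The submitters' processing notes name CASAVA, STAR 2.4.1d, HTSeq 0.6.1p1 and the build NCBIM37 (mm9). The annotation release and strand setting are not given in the sources used here. Columns were matched to samples by the animal and library numbers of the titles. The columns of wild type 3 and 4 also hold the word het, which their titles do not, and the titles' group was kept. Symbols came from GENCODE on GRCm38 for 30204 identifiers. The 908 features with other names took 1.74% to 2.29% of counts. edgeR 4.0.16 (R 4.3.3) was run with TMM, filterByExpr (minimum count 10), and glmQLFit and glmQLFTest in 1 fit of 10 libraries. Calls needed an adjusted p under 0.05 (Benjamini-Hochberg, over 19511 features), and the fit was tested on simulated data. Totals of 39.8 to 122 M counts set the precision. Replicates are separate animals by their numbers. The alternatives were DESeq2 1.42.0, other scaling, no filter, terms for replicate, animal block and Xist, other controls, and each library left out.

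The 10 genes, the lists and the tests were chosen with earlier results of these data known. Named genes were the 10 and, per list and comparison, up to 3 called genes in each direction of largest fold change, or else the gene of smallest p, of which the text gives a part, and 1 named gene is not reported here. Likeness was the root mean square difference of centred log2 CPM over the 10 libraries, for genes with a mean log2 CPM of at least 2, listed for Slc7a11 and Asns.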

Additional observations from a re-analysis of the deposited data

How the results depend on the processing

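Of the 10 genes, 3 were called between homozygous KO and wild type with library totals alone, with an Xist term and with controls limited to the wild types with 1 wt word in the title, and 3 to 6 with 1 library left out (3 without homozygous KO replicate 2 or wild type replicate 1). Asns, Ddit4 and Slc7a11 were called in all alternatives. Of the wider genes 21 were called with those controls, and 37 to 51 with 1 library left out. For heterozygous KO and wild type DESeq2 called 2 of the 10 genes and 2 wider genes, and with 1 library left out edgeR called 0 and 0. Between the knockouts 2 of the 10 genes were called whichever library was left out, and 17 to 24 wider genes, 17 without heterozygous KO replicate 3. The controls-limited fits give no value between the knockouts.

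Usp7 between the knockouts was not called with an Xist term (log2 fold change -0.41, edgeR adjusted p = 0.0547), with only these groups in the fit (-0.42, edgeR adjusted p = 0.0614) or without heterozygous KO replicate 2 (edgeR adjusted p = 0.0765) or 3 (edgeR adjusted p = 0.0915), and it lay from -0.50 to -0.28 with 1 library left out. The fold changes whose direction turned had not been called. For homozygous KO and wild type, Ddit3 was at 0.051 and Chac1 at 0.79 with the replicate block, and Ddit3 at 0.087 with the wild types with 2 wt words. With 1 library left out Ddit3 lay from -0.075 to 0.053 and Chac1 from -0.86 to 0.60. For heterozygous KO and wild type, Ddit4 was at -0.062 with the animal-number term and at -0.0096 with the wild types with 1 wt word, and lay from -0.0023 to 0.038 with 1 library left out, and Slc7a11 was at 0.35 with an Xist term. Between the knockouts, Asns was at -0.017 and Phgdh at -0.026 with library totals alone. With 1 library left out Asns lay from -0.23 to 0.37, Trib3 from -0.15 to 0.0092 and Atf4 from -0.0079 to 0.29. The causes were not tested.

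The replicate numbers only name animals, so they were not taken to pair libraries in the main fit. Deviations of same-numbered libraries correlated at -0.10 to 0.23. Libraries of different numbers were not compared in this way, so these values cannot decide whether the numbers pair libraries. With the replicate block 5, 0 and 3 of the 10 genes were called in homozygous KO and heterozygous KO against wild type and between the knockouts, and 48, 0 and 31 wider genes. Only wild type has a replicate 4, so the replicate block takes this library out of the comparisons with wild type. Atf4 was then called (edgeR adjusted p = 0.0258), as it was without wild type replicate 4, and Atf5 was not (0.0553). Chac1 was called between the knockouts (0.0411), as it was with only these groups in the fit (0.0183). Of 1652 recomputed fold changes of the 10 and the other named genes, 1462 kept direction and side of the threshold. Chac1 had 0 to 69 counts in a library.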

Other observations

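Genes with the most similar course over the 10 libraries were listed for the 2 called genes of largest fold change. They are a description without a test, and the libraries share groups and depth. For Slc7a11 they were Cttn, which binds actin, Cdr2l, Gm13012, Cd74, the invariant chain of MHC class II, and Col27a1, at root mean square differences of 0.194 to 0.318 on the log2 scale. Cttn had mean levels of 4.37 CPM in homozygous KO, 18.0 CPM in heterozygous KO and 18.6 CPM in wild type. For Asns they were Commd10, Cyb5a, Gm11914, Fyb and Usp44, at 0.303 to 0.482. Commd10 had means of 43.5, 44.7 and 16.1 CPM in the same order, so it too stood at the same level in both knockouts, with log2 fold changes from wild type of 1.43 and 1.47.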
